A study of Homo sapiens with 6 samples.

Results

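APAF1 and 6 caspase genes (CASP1, CASP2, CASP6, CASP8, CASP9 and CASP10) were followed in a 6-array study of HCT116 cells, out of 17841 genes with a measured level. They were measured by the 160 probe sets for which the platform annotation gives 1 of these 7 symbols and no other. HCT116 is an established human colorectal carcinoma line, so the groups compare arrays of 1 cell line, and the titles mark it +/+ without naming the locus. Of the 6 arrays, 2 came from control cells (treatment given as none, or as DMSO in the design text), 2 from cells given Nutlin-3 (Nutlin 3R in the titles) and 2 from cells given 5-fluorouracil (5FU), with RNA taken at 12 h. No allele or agent other than these is named, the labels state no dose, and nothing says that replicates were separate cultures, so p-values measure only the spread between these arrays, which may be technical. Nutlin-3 keeps MDM2 from binding p53. 5FU is a pyrimidine analogue whose metabolites block thymidylate synthase and enter RNA and DNA.

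Caspases are proteases made as inactive precursors, and each initiator caspase is switched on by being brought together on a scaffold. APAF1 is the scaffold of the mitochondrial route: when cytochrome c reaches the cytosol, APAF1 assembles into the apoptosome and activates caspase-9, which in turn cleaves the executioner caspases. Caspase-8 and caspase-10 are the initiators at death receptors, caspase-2 is activated in the PIDDosome with PIDD1 and CRADD, caspase-6 is an executioner that cleaves lamins, and caspase-1 matures inflammatory cytokines. APAF1 is known as a transcriptional target of p53 and of E2F factors.

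Promoter sequence from RefSeq was held for 5 of the 7 genes, in 9 windows of assembly GRCh38.p14. The 250 bases before the start are shown for APAF1, the 1 member whose level passed the test below, and for the CASP8 and CASP9 windows that hold a p53 half-site. All are written 5′ to 3′ on the strand of the gene. Capitals mark the match to the p53 half-site consensus in CASP8 and CASP9 and to the GC box (GGGCGG, either strand) in APAF1.
APAF1, chr12:98645040-98645289, plus strand: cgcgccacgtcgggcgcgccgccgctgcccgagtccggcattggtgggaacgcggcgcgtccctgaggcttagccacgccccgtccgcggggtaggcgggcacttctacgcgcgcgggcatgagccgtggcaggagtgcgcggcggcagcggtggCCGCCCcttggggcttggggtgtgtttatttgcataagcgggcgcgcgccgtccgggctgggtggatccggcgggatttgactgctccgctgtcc
CASP8, chr2:201257785-201258034, plus strand: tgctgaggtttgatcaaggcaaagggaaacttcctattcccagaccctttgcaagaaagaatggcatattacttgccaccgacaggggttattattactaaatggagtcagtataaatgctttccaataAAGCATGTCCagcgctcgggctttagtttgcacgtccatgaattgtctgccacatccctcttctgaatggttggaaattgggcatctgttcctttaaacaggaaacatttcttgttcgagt
CASP9, chr1:15524791-15525040, minus strand: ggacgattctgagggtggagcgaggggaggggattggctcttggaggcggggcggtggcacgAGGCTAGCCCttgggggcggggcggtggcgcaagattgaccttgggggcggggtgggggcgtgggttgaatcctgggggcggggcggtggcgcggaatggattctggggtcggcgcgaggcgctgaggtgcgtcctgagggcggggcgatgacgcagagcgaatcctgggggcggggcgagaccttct
The APAF1 window held 0 p53 half-sites and 1 GC box, and 73.6% of its bases were G or C, against a median of 58% over all windows. The half-site lay 121 bases before the start in the CASP8 window and 188 in the CASP9 window. Such a half-site, a palindromic consensus searched on both strands, occurred in 5.57% of 35116 windows, and a GC box in 42.6%. E2F sites were searched as TTTGGCGC, TTTCGCGC, TTTCCCGC and TTTGCCGC on both strands; 2.79% of all windows held 1 or more and 0 of the 9 member windows did. These matches describe letters in the window and are no evidence of binding.

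Levels are deposited log2 values averaged over the probe sets of a gene whose mean over the 6 arrays lay above 4.73, the median of all probe sets. Of the 160 member probe sets 116 passed, which was 39 of 41 for APAF1, 23 of 25 for CASP2, 8 of 11 for CASP6, 19 of 24 for CASP8, 16 of 20 for CASP9, 8 of 20 for CASP10 and 3 of 19 for CASP1. Over all probe sets with 1 symbol, 75.3% passed. CASP1 and CASP10 therefore rest on few probe sets close to the filter, where a difference is hard to see. The number of arrays, not a read count, limits the precision. Array medians ran from 4.73 to 4.78, and any 2 arrays correlated across genes at 0.92 to 0.981. Most probe sets passed for 9 of 10 colonic epithelial markers, among them EPCAM, CDH1 and CDX2, and for 5 of 7 fibroblast and 3 of 8 blood cell markers, so passing the filter alone does not show that a gene is expressed.

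**Figure D1:**
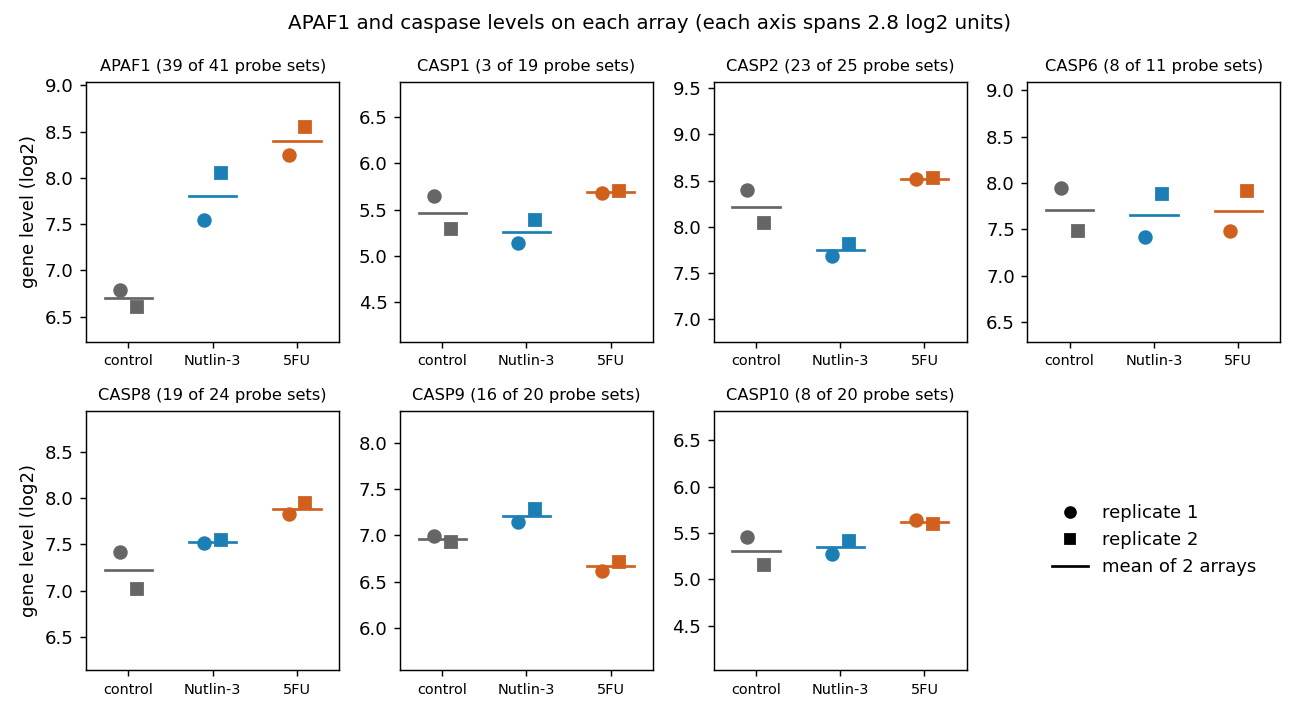
Gene level (log2) on each of the 6 arrays for the 7 genes; circles are replicate 1, squares replicate 2, and lines the means of 2 arrays. APAF1 runs from 6.61 in a control array to 8.55 in a 5FU array, CASP2 and CASP9 lie on opposite sides of control in the 2 drugs, and the CASP6 arrays overlap in all groups.

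APAF1 rose after 5FU and was the 1 of 7 genes to pass the test in any comparison. Its level was 6.79 and 6.61 in the control arrays, 7.55 and 8.06 after Nutlin-3, and 8.24 and 8.55 after 5FU. The 3 groups did not overlap, and the order was control, Nutlin-3, 5FU. For 5FU the mean was 8.39 ± 0.21 against 6.70 ± 0.13 (SD, n = 2), a difference of 1.70 (95% interval 1.21 to 2.18) or 3.24-fold (limma, Benjamini-Hochberg adjusted p = 0.0295). In this comparison 0.448% of 17841 genes passed. In these bulk samples more RNA per cell and more cells with the RNA cannot be told apart. The call was lost with replicate number as a block (limma adjusted p = 0.147) and with arrays centred on their medians (0.0614). It was also lost without any 1 of the control or 5FU arrays. The lowest adjusted p of the alternatives was 0.0104, with upper-quartile probe sets. Over all alternatives the difference stayed between 1.55 and 1.85.

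After Nutlin-3 the APAF1 mean was 7.80 ± 0.36, a difference from control of 1.10 (95% interval 0.62 to 1.59) or 2.15-fold, which did not pass (adjusted p = 0.0673). With upper-quartile probe sets alone it passed (adjusted p = 0.026, with a range of 0.026 to 0.224 over the alternatives). Both Nutlin-3 arrays lay above both control arrays. 5FU against Nutlin-3 gave 0.59 (0.11 to 1.08, adjusted p = 0.288), and 0.34 without Nutlin-3 replicate 1, with a range of 0.34 to 0.85 over the alternatives, so the drugs were not shown to differ in APAF1 and may differ by up to the upper bound.

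The APAF1 difference was seen along most of the gene's probe sets. Among all 41, without a filter, the arrays did not overlap and 5FU was higher in 38, or 92.7%, where the share over all probe sets with 1 symbol was 18.7%. For Nutlin-3 it was 34 of 41, or 82.9%, against 16.8%. Probe sets of 1 gene measure 1 transcript population on the same arrays and are not independent. Of the 39 used, 1 had a group mean below the filter. The median difference over these 39 was 1.70 after 5FU, with a range of -0.02 to 2.93, and 1.17 after Nutlin-3, with a range of 0.06 to 1.88. Single probe sets did not pass in limma's fit to 705699 probe sets, in which 0 passed for 5FU against control and 44222 had an unadjusted p below 0.05. That is 6.27% of them, where 36 of the 39 used APAF1 probe sets had such a p, the lowest adjusted p being 0.134. For Nutlin-3 against control 32 of 39 did, against 6.14%, with no probe set called. For 5FU against Nutlin-3 13 of 39 did, against 7.39%, and 0.00142% of probe sets passed, with no APAF1 probe set among them. Unlike the shares given first, those of this fit also count probe sets with several symbols or none.

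The probe sets of APAF1 were called unequal in their change after 5FU, though the call was not stable. limma's diffSplice, which asks whether the probe sets of a gene differ in their change, gave an adjusted p of 0.00152 for APAF1, and 1.27% of genes passed. The test takes the probe sets of a gene as independent, which those on the same arrays are not, so its p-values can be too small. Probe set 3427877 read 6.13 and 6.29 in control and 6.22 and 6.21 after 5FU. Probe set 3427879, well above the filter with a mean of 8.83, read 8.52 and 9.04 in control and 8.80 and 8.73 after 5FU. Both overlapped, and their differences of 0.01 and -0.02 lay 1.74 and 1.76 below the rest of the gene (adjusted p = 0.02 and 0.0176, limma diffSplice), the 2 of 39 to pass singly. Probe set 3427880 had no overlap and a small difference of 0.34, and it did not pass (adjusted p = 0.159). These 3 are among the 4 lowest ID numbers of APAF1. Between and after them by number, 3427878 and 3427881 each differed by 1.01.

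At the other end, probe set 3427902 read 5.37 and 4.82 in control, 5.55 and 7.17 after Nutlin-3 and 7.95 and 8.10 after 5FU, the largest difference among the 39 at 2.93. Probe set 3427922 differed by 2.86 after 5FU and had the largest difference after Nutlin-3, 1.88. Neither overlapped with control after 5FU. No file used here places the probe sets within the transcript, and whether low-changing probe sets mark another transcript or respond poorly was not tested. The 5FU difference of a probe set and its mean level had a correlation of -0.23 across the 39, given as a description. The call of unequal change was lost without any 1 of the control or 5FU arrays (adjusted p = 0.0643 without control replicate 1, 1 without control replicate 2, 0.657 without 5FU replicate 1 and 1 without 5FU replicate 2). It did not pass for Nutlin-3 (adjusted p = 1, where 1.14% of genes passed).

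**Figure D2:**
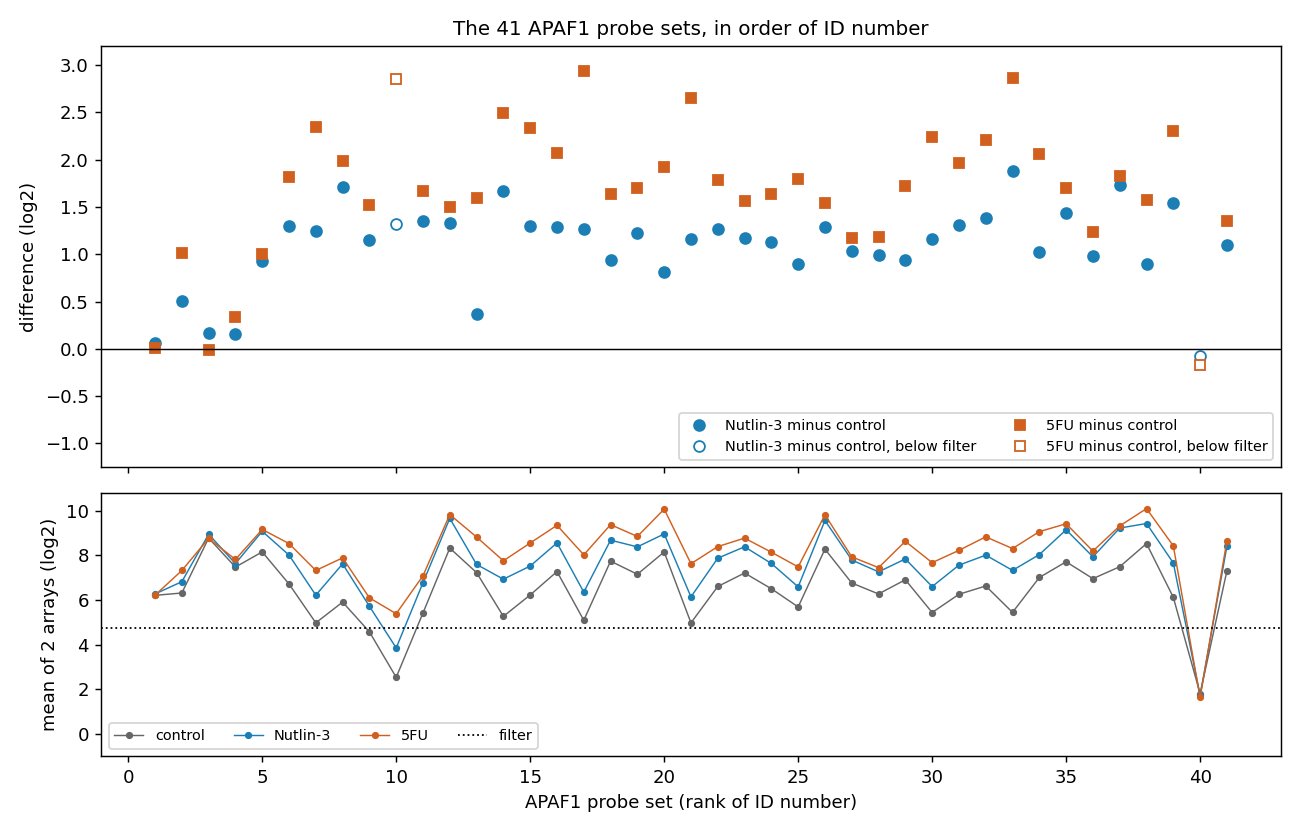
Upper panel, difference from control (log2) of each of the 41 APAF1 probe sets in order of ID number, after Nutlin-3 (circles) and 5FU (squares), with open symbols for the 2 below the filter; lower panel, group means of 2 arrays (log2) with the filter dotted. Probe sets ranked 1, 3 and 4 lie between -0.02 and 0.34 after 5FU, while most others lie above 1.

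CASP9, the protease that APAF1 activates, did not pass in any comparison. Its level was 7.0 and 6.93 in control, 7.14 and 7.29 after Nutlin-3, and 6.62 and 6.72 after 5FU. Both Nutlin-3 arrays lay above control and both 5FU arrays below it, so the order was 5FU, control, Nutlin-3 with no overlap. The differences were small: 0.25 for Nutlin-3 (95% interval -0.06 to 0.57, adjusted p = 0.637) and -0.30 for 5FU (-0.61 to 0.02, adjusted p = 0.506), or 1.23-fold lower. Set directly against Nutlin-3, 5FU was -0.55 (-0.86 to -0.23), and this did not pass either (adjusted p = 0.151). All 16 used CASP9 probe sets had a lower mean after 5FU than after Nutlin-3, with a median of -0.55 and a range of -0.99 to -0.08. They were read on the same arrays and are not independent, and the share of all probe sets with a lower mean was not counted. Without the filter the arrays did not overlap in 9 of 20 (45%), where 19.6% of all probe sets with 1 symbol were lower. The largest CASP9 difference from control after 5FU was in probe set 2397719, at -0.86.

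CASP2, the PIDDosome caspase, stood in the opposite order and did not pass either. Its level was 8.40 and 8.04 in control, 7.68 and 7.81 after Nutlin-3, and 8.51 and 8.52 after 5FU. The Nutlin-3 arrays were the lowest and the 5FU arrays the highest, with no overlap, although the control arrays differed by more than the step from control replicate 1 to 5FU. Nutlin-3 against control was -0.47 (95% interval -0.85 to -0.09, adjusted p = 0.35), or 1.39-fold lower, and 5FU against control was 0.30 (-0.08 to 0.68, adjusted p = 0.608). Without control replicate 1 these were -0.29 and 0.48, without control replicate 2 -0.65 and 0.12, and with the median over probe sets the 5FU difference was 0.051. 5FU was 0.77 above Nutlin-3 (0.39 to 1.15), a 1.71-fold difference that did not pass (adjusted p = 0.106, with a range of 0.0526 to 0.644 over the alternatives).

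The CASP2 probe sets varied in how far they shared this order. Over all 25, 5FU lay above Nutlin-3 without overlap in 19, or 76%, against 21.1% of all probe sets with 1 symbol, and Nutlin-3 lay below control in 16, or 64%, against 17.6%. 5FU lay above control without overlap in 10, or 40%, against 18.7%. Probe set 3029042 had the largest 5FU minus Nutlin-3 difference at 1.95, while 3029032 and 3029031 differed by 0.26 and -0.23. The latter read 8.46 and 8.50 in control, 8.84 and 8.77 after Nutlin-3, and 8.76 and 8.39 after 5FU, so it ran against the gene. The probe sets of CASP2 were not shown to differ in their change (limma diffSplice adjusted p = 0.459, where 2.28% of genes passed).

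CASP8, the initiator at death receptors, had the second-largest 5FU difference of the 7. It read 7.42 and 7.02 in control, 7.51 and 7.54 after Nutlin-3, and 7.83 and 7.94 after 5FU, so each drug lay above control and 5FU was the highest. 5FU against control was 0.66 (95% interval 0.27 to 1.06), or 1.58-fold, and did not pass (adjusted p = 0.208). Set against Nutlin-3, 5FU was 0.36 higher, which did not pass either (-0.04 to 0.75, limma adjusted p = 0.428). Nutlin-3 against control was 0.31 (-0.08 to 0.70, adjusted p = 0.651), and 0.51 or 0.11 without control replicate 1 or 2. The control arrays lay further apart than the arrays of either drug. Among all 24 probe sets 5FU was higher without overlap in 14, or 58.3%, against 18.7% of all probe sets with 1 symbol, and lower in 1. Among the 19 used the largest difference after each drug was in probe set 2522743, which read 4.83 and 5.16 in control, 5.99 and 6.72 after Nutlin-3 and 7.12 and 6.32 after 5FU, or 1.73 after 5FU. The lowest 5FU difference among the 19 used was in 2522730 at -0.14, and among all 24 in 2522761, below the filter, at -0.74. CASP8 probe sets were not shown to differ in their change after 5FU (limma diffSplice adjusted p = 1).

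CASP10, the paralogue next to CASP8 in RefSeq gene order on chromosome 2, read 5.45 and 5.15 in control, 5.27 and 5.42 after Nutlin-3, and 5.64 and 5.60 after 5FU. The 5FU arrays were the highest, and the Nutlin-3 arrays lay within the range of control. The differences from control were 0.04 for Nutlin-3 (95% interval -0.32 to 0.40, adjusted p = 0.976) and 0.32 for 5FU (-0.05 to 0.68, adjusted p = 0.55), on 8 probe sets of which 2 had a group mean below the filter. Without control replicate 2 the 5FU difference was 0.16. Over all 20 CASP10 probe sets the arrays did not overlap and were higher after 5FU in 5 (25%), near the 18.7% over all probe sets with 1 symbol. CFLAR, an inhibitor of caspase-8 that flanks CASP10 on the other side, is given with the platforms below.

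CASP6, the 1 executioner among the members, showed the least difference between groups. Its arrays read 7.94 and 7.48 in control, 7.42 and 7.88 after Nutlin-3, and 7.48 and 7.91 after 5FU, so replicates differed more than groups and every group overlapped. The differences from control were -0.06 (95% interval -0.63 to 0.52, adjusted p = 0.981) and -0.01 (-0.59 to 0.56, adjusted p = 0.994). The intervals leave room for changes up to about these bounds, and the sign of each CASP6 difference turned under several alternatives. In 0 of 11 CASP6 probe sets did either drug stand apart from control, where 16.8% of all probe sets with 1 symbol were higher and 17.6% lower for Nutlin-3, and 18.7% higher and 18.6% lower for 5FU.

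CASP1, the inflammatory caspase, read 5.64 and 5.29 in control, 5.14 and 5.38 after Nutlin-3, and 5.68 and 5.71 after 5FU on 3 of 19 probe sets. Nutlin-3 overlapped with control, and the 5FU arrays were the highest by a small margin. The differences were -0.20 (95% interval -0.60 to 0.19, adjusted p = 0.819) and 0.23 (-0.17 to 0.63, adjusted p = 0.77). Without control replicate 1 they were -0.026 and 0.41, and without control replicate 2 -0.38 and 0.049. The other 16 probe sets lay below the median of the table, 1.42 being the lowest single value. With all 19 probe sets the Nutlin-3 difference was 0.05, of the other sign. On the 3 used, 5FU lay 0.43 above Nutlin-3 (0.03 to 0.83), which did not pass (limma adjusted p = 0.341). With all 19 this difference was -0.02. Among all 19, 5FU lay above control without overlap in 4, or 21.1%, near the 18.7% over all probe sets with 1 symbol. It lay below in 3, or 15.8%, against 18.6%.

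Across the members, limma called 1 of the 7 members for 5FU against control, 0 for Nutlin-3 against control and 0 for 5FU against Nutlin-3, where 0.448%, 1.22% and 0.633% of all genes were called. At an unadjusted p below 0.05 the members numbered 2, 2 and 4, against 10.7%, 10.2% and 13.3% of genes. Arrays did not overlap for 6, 4 and 6 members, against 38%, 34.2% and 46% of genes, in the same order. After 5FU 5 members lay higher than control and 1 lower, where 20% and 18% of genes did. After Nutlin-3 3 lay higher and 1 lower, where 16.2% and 18% did, and 5FU lay above Nutlin-3 for 5 and below for 1, where 25.2% and 20.8% did. By direction, limma called 0.331% of genes higher and 0.118% lower for 5FU, 0.359% and 0.858% for Nutlin-3, and 0.572% and 0.0617% for 5FU against Nutlin-3. The median difference of the members was 0.30 for 5FU, 0.04 for Nutlin-3 and 0.36 for 5FU against Nutlin-3, where the medians of all genes were 0.0014, 0.00062 and 0.0052. Both drugs were compared with the same 2 control arrays, so their differences are not independent.

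**Figure D3:**
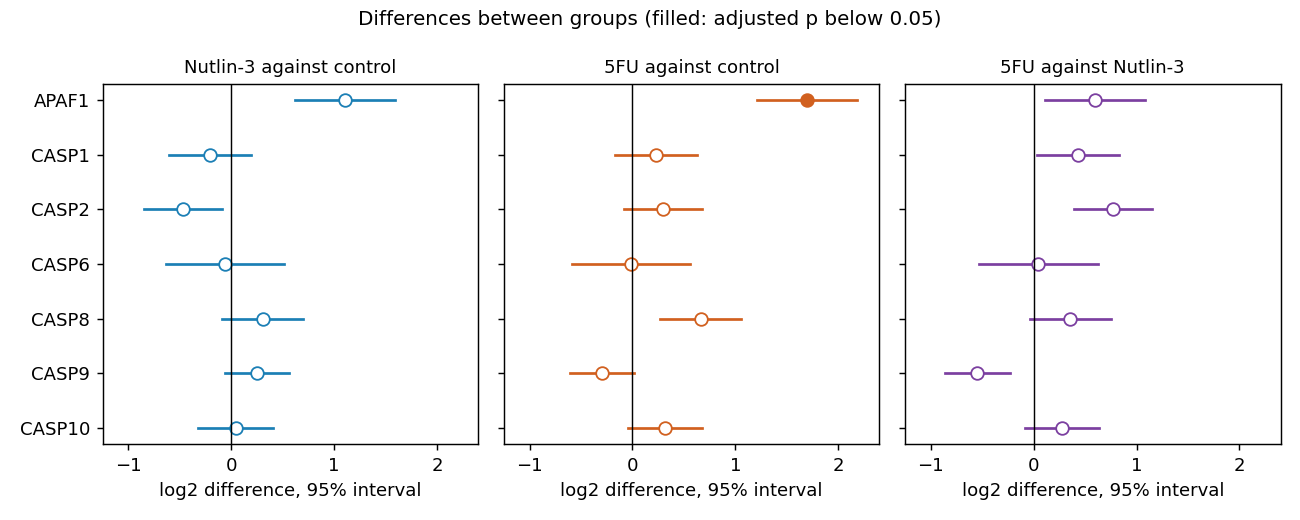
Differences between groups (log2) with limma's 95% intervals for the 7 genes in the 3 comparisons; filled points have an adjusted p below 0.05. APAF1 after 5FU, at 1.70, is the filled point, and the intervals of CASP2 and CASP9 for 5FU against Nutlin-3 lie on opposite sides of 0.

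**Figure D4:**
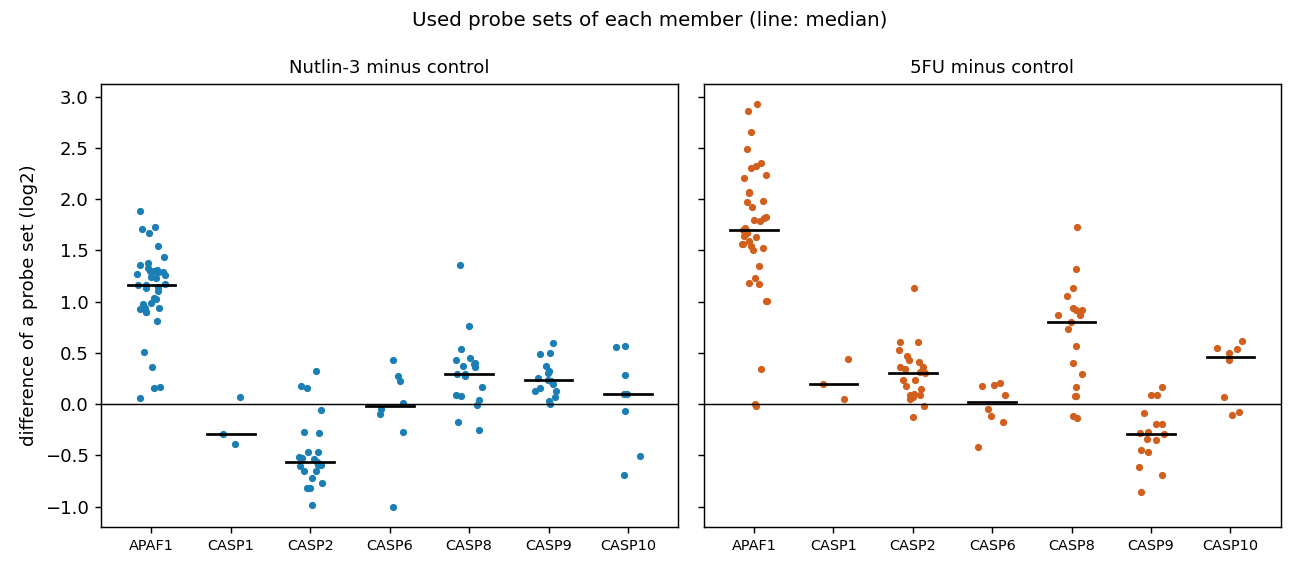
Difference from control (log2) of every used probe set of each gene after Nutlin-3 (left) and 5FU (right), with the median as a line; sideways scatter only separates points. The APAF1 medians are 1.17 and 1.70, while the CASP6 medians lie near 0 after either drug.

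The genes whose 6 array values lay nearest to APAF1, each centred on its own mean, were AKR1B10 (distance 0.128 log2 units, r = 0.998 over 6 arrays), SUSD6 (0.16, r = 1.00), LACC1 (0.298, r = 0.988), TRIML2 (0.355, r = 0.98) and BLOC1S2 (0.38, r = 0.99). Their 5FU minus control differences lay between 1.45 and 1.76 and their Nutlin-3 differences between 0.77 and 1.19. AKR1B10 is an aldo-keto reductase and BLOC1S2 a subunit of a lysosomal trafficking complex. These were picked for likeness out of 17841 genes, on arrays with a shared drug pattern.

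Genes that act with the members were mostly not called. Among 11 genes of the apoptosome and the inhibitors of apoptosis, BIRC3, an inhibitor of apoptosis that restrains caspase-8 activation at receptors, rose after 5FU. It read 5.81 and 5.97 in control, 6.24 and 6.62 after Nutlin-3 and 7.37 and 7.71 after 5FU, a difference of 1.65 (95% interval 1.20 to 2.10, adjusted p = 0.0283). BIRC5, or survivin, a mitotic gene of the same family, fell after Nutlin-3, from 8.27 and 8.24 to 7.18 and 7.14, a difference of -1.10 (-1.42 to -0.77, adjusted p = 0.019). After 5FU BIRC5 read 7.87 and 8.10, a difference from control of -0.27 that did not pass (limma adjusted p = 0.577). Set against Nutlin-3, 5FU was 1.11 higher for BIRC3 (limma adjusted p = 0.0685) and 0.82 higher for BIRC5 (0.0657), and neither passed. BIRC3 rests on 8 of its 18 probe sets. Over all genes limma called 0.448% for 5FU against control, 1.22% for Nutlin-3 against control and 0.633% for 5FU against Nutlin-3. BIRC3 and BIRC5 were the only calls of 44 measured genes in 4 lists and 3 comparisons. Both were lost with each control array left out and, for each, with either array of its own drug left out, with adjusted p between 0.0689 and 0.211, and BIRC3 also with centred arrays (0.058) or all probe sets (0.0898). AVEN, which binds APAF1, differed by -0.54 after 5FU (-0.92 to -0.16, adjusted p = 0.289) and by -0.49 after Nutlin-3 (-0.88 to -0.11, adjusted p = 0.318). The list's median was -0.07 for each drug.

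Of 15 measured platform and adaptor genes, 0 of them passed limma in any comparison, where at most 1.22% of all genes did. At an unadjusted p below 0.05 there were 4 for Nutlin-3 and 3 for 5FU, where 10.2% and 10.7% of all genes had one. CFLAR read 7.47 and 6.97 in control, 7.60 and 7.93 after Nutlin-3 and 8.0 and 8.15 after 5FU. Its differences from control were 0.55 (95% interval 0.06 to 1.04, adjusted p = 0.419) and 0.85 (0.36 to 1.34, adjusted p = 0.195). 5FU lay 0.31 above Nutlin-3, which did not pass (-0.18 to 0.80, limma adjusted p = 0.583). The means of CASP8 stood in the same order, and its difference between the drugs did not pass either. NLRP1, an inflammasome sensor that recruits caspase-1, differed by 0.70 after Nutlin-3 (adjusted p = 0.0821) and 0.47 after 5FU (adjusted p = 0.286), and passed for Nutlin-3 with the median over probe sets. CASP8AP2, a caspase-8 associated protein with a role in histone gene expression, read 7.35 and 6.69 in control, 5.70 and 6.45 after Nutlin-3 and 7.44 and 7.74 after 5FU. It stood below control after one drug and above it after the other, with differences of -0.94 (adjusted p = 0.312) and 0.57 (adjusted p = 0.607).

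Of 14 caspase substrates 0 passed limma in any comparison, where at most 1.22% of all genes did. In limma 2 and 1 had an unadjusted p below 0.05 for Nutlin-3 and 5FU, where 10.2% and 10.7% of all genes did. LMNB1, lamin B1, differed by -1.09 after Nutlin-3 (adjusted p = 0.0755) and by -0.20 after 5FU (adjusted p = 0.88), and passed for Nutlin-3 with upper-quartile probe sets (0.0184) or without control replicate 2 (0.0414), a range of 0.0184 to 0.308 over the alternatives. IL18, a cytokine that caspase-1 matures, read 7.10 and 6.62 in control, 6.86 and 7.74 after Nutlin-3 and 7.49 and 8.10 after 5FU, and its 5FU difference of 0.93 did not pass (adjusted p = 0.384). PARP1, a DNA repair enzyme cut by executioner caspases, differed by 0.47 after 5FU (adjusted p = 0.602). Among 4 other measured caspases none passed limma, none had an unadjusted p below 0.05, and differences from control lay between -0.21 and 0.08. CASP5, CASP12 and CASP14 rest on 2, 3 and 2 probe sets.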

How the data were processed

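Expression was read on Affymetrix Human Exon 1.0 ST arrays. The deposited values are log2 levels of 1411399 probe sets; RMA, which corrects background, normalizes arrays and summarises probes, is named in the submitters' processing notes, without version or settings. In the platform annotation 357604 probe sets carried a single symbol and 15322 more than 1, and 1038473 were unnamed; 2966 of 19560 symbols were updated through RefSeq synonyms (GRCh38.p14). Gene values were means over probe sets above the median, with at least 2. The 3 groups entered 1 linear model in limma 3.58.1 (R 4.3.3; lmFit, eBayes, contrasts, 3 residual degrees of freedom), without a block, for 17841 genes and for 705699 single probe sets; diffSplice used the same design. Calls needed a Benjamini-Hochberg adjusted p below 0.05 over all features. With 2 arrays against 2, an exact permutation test cannot go below 0.333. Fits were tested on simulated data with errors independent between arrays. Replicate differences in the real data were correlated, so that test does not show how reliable the calls are here. Named were all 7 members, called genes of 4 pathway lists and the 3 largest changes of each, and 5 nearest patterns. Members and lists were chosen with earlier results of these data known. Alternatives covered the block, variances, centring, probe-set filter, summary and each array left out.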

Additional observations from a re-analysis of the deposited data

Results flagged for a closer look

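CASP2, CASP9 and CASP8AP2 were singled out among the members and the named pathway genes. In each, both arrays of 1 drug lay above both control arrays and both arrays of the other drug below them. Over all genes, arrays did not overlap with control in 34.2% for Nutlin-3 and 38% for 5FU. How many of all genes stood on opposite sides in the 2 drugs was not counted. The test of the difference between drugs did not pass for any of the 3 in limma. CASP2 was 0.77 higher after 5FU than after Nutlin-3 on the log2 scale (adjusted p = 0.106), with the Nutlin-3 arrays below control. CASP9 differed by -0.55 (adjusted p = 0.151), with the Nutlin-3 arrays above control. CASP8AP2 was 1.51 higher after 5FU than after Nutlin-3 (adjusted p = 0.101), with the Nutlin-3 arrays below control. Both drugs share the 2 control arrays.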

How the results depend on the processing

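Of the 21 member differences (7 genes, 3 comparisons), 15 kept their sign under each of up to 13 alternatives, and the 6 others belong to CASP1, CASP6 and CASP10, whose main values did not pass. CASP1 and CASP10 have no value with upper-quartile probe sets, and CASP1 none with at least 4 probe sets. Array number, and signal near the filter for CASP1 and CASP10, limit what can be seen. Causes of the shifts below were not tested.

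Members called for 5FU against control numbered 1, and 0 with the replicate block or with arrays centred on their medians; leaving out single arrays gave 0 to 1. The lost call was APAF1, with an adjusted p of 0.147 in limma with the replicate block. For Nutlin-3 against control 0 became 1 with upper-quartile probe sets. Genes called for Nutlin-3 against control (217) numbered 2 with the replicate block, 127 with centred arrays and 380 with upper-quartile probe sets, and 5 to 149 with single arrays left out. For 5FU against control (80) they numbered 1, 14 and 151 in the same order, 39 with the median over probe sets, and 1 to 63. For 5FU against Nutlin-3 (113) they numbered 0, 37 and 234, 69 with the median over probe sets or with all probe sets, and 3 to 104. The replicate numbers are not known to pair arrays: replicate differences correlated at -0.56 between control and Nutlin-3, -0.52 between control and 5FU and 0.63 between the drugs. A crossed replicate block, added after seeing the data, swapped the replicate numbers of the control arrays. It gave 1788 and 1882 of 17841 genes for Nutlin-3 and 5FU against control, with 2 members each. The swap turns the negative correlations positive, so a rise in calls was built in and these counts lend no support.

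Single probe sets called with trend and robust variances numbered 2696, 829 and 1606 for Nutlin-3 against control, 5FU against control and 5FU against Nutlin-3, and 1531, 167 and 630 with upper-quartile probe sets. For the last comparison (10) the replicate block and all probe sets gave 0, and for both comparisons of 5FU single arrays left out gave 0 to 1. Genes with unequal probe sets (203, 226 and 407) numbered 149 and 246 for the last 2 with the replicate block, and 109 to 1044, 32 to 388 and 48 to 2120 with single arrays left out.

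Signs turned as follows. With all probe sets CASP1 was 0.047 for Nutlin-3 against control and -0.020 for 5FU against Nutlin-3. CASP6 was 0.13 (upper quartile) and 0.073 (median) for Nutlin-3, 0.023 (upper quartile), 0.025 (all probe sets) and 0.049 (median) for 5FU, and -0.11 (upper quartile) and -0.023 (median) between drugs; with single arrays left out it ran from -0.29 to 0.18, -0.25 to 0.22 and -0.18 to 0.28. CASP10 for Nutlin-3 ran from -0.11 to 0.19. CASP5 for Nutlin-3 was 0.017 with all probe sets. CASP14 for Nutlin-3 was -0.0074 with centred arrays and -0.069 with all probe sets. CASP12 for Nutlin-3 was -0.0047 with all probe sets and -0.21 with the median, and for 5FU -0.017 with all probe sets. With single arrays left out LMNB1 after 5FU ran from -0.50 to 0.10, IL18 after Nutlin-3 from -0.0035 to 0.88, PARP1 after Nutlin-3 from -0.50 to 0.22, CASP5 from -0.35 to 0.17 after Nutlin-3 and -0.48 to 0.048 after 5FU, CASP14 from -0.31 to 0.31 and -0.44 to 0.089, and CASP12 from -0.32 to 0.48 and -0.36 to 0.44.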

Other observations

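The probe sets shared by a member and another gene, which entered no comparison, are 3. The 2 annotated to both CARD16 and CASP1 lay far below the filter, with means over the 6 arrays of 2.77 and 2.24. The 1 annotated to both CASP10 and GBP4 read 9.13 and 8.60 in control, 8.80 and 9.22 after Nutlin-3 and 9.18 and 9.59 after 5FU, where the highest mean of any probe set of CASP10 alone was 6.75. Its signal cannot be assigned to either gene here.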
